A study of Mus musculus with 2 samples.

Results

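The nuclear genes of the respiratory chain and the ATP synthase were examined in accessible chromatin of mouse fetal liver cells. They were taken as all protein-coding genes of the RefSeq mouse annotation outside the mitochondrial genome whose symbols start with Nduf, Sdha, Sdhb, Sdhc, Sdhd, Uqcr, Cox4 to Cox8 or Atp5, which gave 100 of 21883 genes. Chromatin was assayed by ATAC-seq, in which a transposase cuts open DNA and leaves sequencing adapters in it. One library, numbered replicate 2, came from CD45.2(+) cells of genotype Vav1-iCre Brd9fl/fl (Brd9 knockout), and the other, replicate 1, from CD45.2(+) Brd9fl/fl cells without the Cre (control). Both were C57BL/6 livers at E14.5, counted in days of gestation, sorted for c-Kit and against lineage markers, with 150000 cells in each. Both groups carry the floxed Brd9 alleles. Vav1 regulatory DNA drives the Cre in blood cells, where it deletes part of Brd9, whose protein is a bromodomain subunit found only in the non-canonical form of the BAF remodelling complex. How many embryos were pooled, and where the floxed part of Brd9 lies, are not given in the sources used here.

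Mitochondria make ATP by passing electrons from nutrients to oxygen. Complex I takes electrons from NADH and complex II takes them from succinate. Complex III hands them to cytochrome c, and complex IV, cytochrome c oxidase, passes them to oxygen. Complexes I, III and IV pump protons across the inner membrane, and complex V, the ATP synthase, lets them back to drive ATP synthesis. A few subunits are encoded by mitochondrial DNA, but the genes described here lie in the nucleus, so that each complex other than II is built from both genomes. In many cell types their promoters are known for sites of GABPA, an ETS factor once named nuclear respiratory factor 2, of NRF1 and of YY1, and for nuclear oestrogen-related receptors (ERR).

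Accessible regions were the peaks of both deposited lists, merged where they overlapped by at least 1 bp. Each gene was given a region within 1 kb of either of its ends. Regions in both lists were taken first, and among several the one with the most reads summed over both lists was used. The merged set held 29076 regions, of which 95 lay at an end of one of the 100 genes. Values are summit reads, the number of reads covering the highest point of a peak. The knockout library had 0.640 times the depth of the control library, as judged from the lowest background of each list, so a scaled ratio is knockout over control summit reads divided by 0.640. Each interval is a 95% interval that covers counting error only. Each genotype had 1 library, so no difference could be checked against replicates and no p-values are given. In bulk cells, a smaller share of cells with an open site and less signal per cell cannot be told apart.

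The knockout list held 22348 peaks with a median of 28 summit reads, against 25330 peaks with a median of 37 in the control list. Of 8 blood progenitor markers, 5 had a gene-end region in both lists, while Gata1, Gata2 and Ptprc had none in either list. Kit had 65 summit reads in the knockout and 109 in the control, Myb 25 and 50, Runx1 30 and 61, Tal1 61 and 214, and Lyl1 283 and 336, so the markers differed in both directions from the relative depth given above. None of 3 macrophage markers had such a region and 1 of 4 hepatocyte markers did, Apoa1, with 19 knockout and 26 control reads, while Alb, Afp and Ttr had none. Of 3 endothelial markers, Cdh5 and Pecam1 had none, and Kdr had regions that did not overlap between the lists. The libraries differed at some sex-linked genes. The Y-linked Ddx3y and Uty had regions in the knockout list alone, with 33 and 18 reads. Neither list held a gene-end region for the remaining Y chromosome markers, Eif2s3y and Kdm5d. Xist had 33 reads in the knockout against 86 in the control. The Brd9 gene-end region had 151 knockout and 217 control reads, which does not test the deletion.

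Promoter sequences show what the regions hold. They come from the RefSeq promoter table of assembly GRCm38.p6, which shares its coordinates with mm10, and run 5′ to 3′ on the strand of the gene from 250 bp before to 50 bp after an annotated start. Capitals mark exact matches, on either strand, to CCGGAAG (ETS), GCGCATGC (NRF1), AAGATGGC (YY1) and TCAAGGTCA (ERR). A match is a run of letters and not a measured binding site. The first set is shown because these 5 genes were the only ones of the 100 whose scaled ratio passed 1.5-fold in either direction, all lower in the knockout. They are Ndufs3 (chr2:90904672-90904971, minus strand), Ndufc2 (chr7:97399753-97400052, plus), Ndufa7 (chr17:33824395-33824694, plus), Atp5e (chr2:174464052-174464351, minus) and Atp5j2 (chr5:145191492-145191791, minus).
Ndufs3: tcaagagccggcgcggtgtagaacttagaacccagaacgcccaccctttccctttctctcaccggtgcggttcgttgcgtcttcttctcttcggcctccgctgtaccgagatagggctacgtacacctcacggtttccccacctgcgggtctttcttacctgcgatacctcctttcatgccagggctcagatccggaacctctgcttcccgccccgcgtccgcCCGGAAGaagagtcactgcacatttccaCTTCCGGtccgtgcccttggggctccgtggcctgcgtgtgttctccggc
Ndufc2: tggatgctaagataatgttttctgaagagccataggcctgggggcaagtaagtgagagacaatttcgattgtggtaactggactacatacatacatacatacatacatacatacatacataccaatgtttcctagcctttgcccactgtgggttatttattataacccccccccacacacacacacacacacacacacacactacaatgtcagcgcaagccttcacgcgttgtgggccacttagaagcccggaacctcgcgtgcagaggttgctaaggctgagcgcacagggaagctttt
Ndufa7: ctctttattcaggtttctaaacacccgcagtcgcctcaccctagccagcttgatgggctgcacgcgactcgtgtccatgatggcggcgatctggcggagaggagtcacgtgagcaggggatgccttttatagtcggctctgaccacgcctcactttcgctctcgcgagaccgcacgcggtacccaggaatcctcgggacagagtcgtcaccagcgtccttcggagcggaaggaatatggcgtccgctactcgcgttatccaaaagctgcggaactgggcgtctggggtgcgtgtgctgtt
Atp5e: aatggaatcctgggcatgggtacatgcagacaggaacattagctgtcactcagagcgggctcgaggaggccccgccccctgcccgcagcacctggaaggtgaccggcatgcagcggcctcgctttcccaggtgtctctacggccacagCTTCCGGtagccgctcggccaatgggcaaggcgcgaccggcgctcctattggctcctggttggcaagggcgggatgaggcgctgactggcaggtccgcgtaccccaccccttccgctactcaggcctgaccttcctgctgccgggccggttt
Atp5j2: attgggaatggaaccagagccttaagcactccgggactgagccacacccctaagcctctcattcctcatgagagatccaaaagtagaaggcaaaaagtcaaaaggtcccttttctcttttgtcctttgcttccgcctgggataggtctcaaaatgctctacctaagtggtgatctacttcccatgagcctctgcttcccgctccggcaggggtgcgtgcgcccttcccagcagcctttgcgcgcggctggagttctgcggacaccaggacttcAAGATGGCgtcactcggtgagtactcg

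Ndufs3 holds ETS letters at −27 and 2, counted from the start, Atp5e holds them at −102, and Atp5j2 holds the YY1 letters at 24. Ndufc2 and Ndufa7 have none of the 4 marked motifs.

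The second set shows a pair of promoters that were not in both lists. Cox7b (chrX:106015450-106015749, plus) had a region in the control list alone, and Cox8b (chr7:140900397-140900696, minus), a cytochrome c oxidase isoform of heart and skeletal muscle, had none.
Cox7b: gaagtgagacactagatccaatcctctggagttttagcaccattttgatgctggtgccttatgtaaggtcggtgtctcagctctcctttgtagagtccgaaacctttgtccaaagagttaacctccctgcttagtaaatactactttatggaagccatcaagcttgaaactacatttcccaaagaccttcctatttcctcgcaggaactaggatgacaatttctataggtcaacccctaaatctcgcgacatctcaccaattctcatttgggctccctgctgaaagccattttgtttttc
Cox8b: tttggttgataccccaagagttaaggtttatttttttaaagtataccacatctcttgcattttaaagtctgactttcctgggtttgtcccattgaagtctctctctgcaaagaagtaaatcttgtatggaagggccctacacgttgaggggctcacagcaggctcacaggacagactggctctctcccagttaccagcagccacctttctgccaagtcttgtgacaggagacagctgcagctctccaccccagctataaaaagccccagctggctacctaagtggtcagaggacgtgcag

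Neither has a marked motif. Their GC content was 43.3% and 48.3%, against a median of 59.0% for the 83 promoters of the gene set that lay in regions of both lists. ETS, NRF1 or YY1 letters were in 38 of these 83, so most of the 83 lacked them too. The promoters of Cox7b2 and Ndufb4b, also in neither list, are not shown.

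The third set shows how the motifs sit in promoters that were open in both libraries: Sdhb (chr4:140961021-140961320, plus), Uqcrc1 (chr9:108936398-108936697, plus) and Atp5j (chr16:84834927-84835226, minus).
Sdhb: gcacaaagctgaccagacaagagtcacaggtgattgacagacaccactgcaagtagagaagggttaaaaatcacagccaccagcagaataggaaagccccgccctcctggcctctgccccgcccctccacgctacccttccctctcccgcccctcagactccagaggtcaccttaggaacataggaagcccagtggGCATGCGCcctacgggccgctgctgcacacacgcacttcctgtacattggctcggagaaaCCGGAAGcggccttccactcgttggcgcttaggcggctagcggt
Uqcrc1: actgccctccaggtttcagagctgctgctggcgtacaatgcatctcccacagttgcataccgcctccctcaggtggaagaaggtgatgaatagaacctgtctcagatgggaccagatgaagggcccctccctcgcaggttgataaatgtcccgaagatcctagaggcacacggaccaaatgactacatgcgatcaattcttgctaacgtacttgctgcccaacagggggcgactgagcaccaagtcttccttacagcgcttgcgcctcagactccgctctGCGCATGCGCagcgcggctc
Atp5j: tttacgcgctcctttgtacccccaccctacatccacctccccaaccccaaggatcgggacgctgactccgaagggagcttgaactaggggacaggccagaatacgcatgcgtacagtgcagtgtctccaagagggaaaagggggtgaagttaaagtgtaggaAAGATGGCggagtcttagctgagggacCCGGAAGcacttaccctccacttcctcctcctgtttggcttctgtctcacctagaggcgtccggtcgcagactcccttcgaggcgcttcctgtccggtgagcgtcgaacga

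Sdhb has the NRF1 letters at −54 and the ETS letters at 7, Uqcrc1 has the NRF1 letters at 31 and 33, overlapping and on opposite strands, and Atp5j has YY1 letters at −88 and ETS letters at −61. Atp5j has another annotated start, and that one was used for its summit positions below.

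Nearly all of these genes were open in both libraries. A gene-end region was in both lists for 89 of the 100 genes, or 89.0% (exact Clopper-Pearson interval 81.2 to 94.4), against 47.4% of all protein-coding nuclear genes. No gene of the set had a region in the knockout list alone, where 1.79% of all genes stood, and 1 had a region in the control list alone, where 3.42% stood. For comparison, 74 of 78 mitochondrial ribosomal protein genes and 46 of 51 proteasome genes, both of them other housekeeping families, had a region in both lists. The share was high in each of these families.

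By complex, a region was in both lists for 37 of 39 complex I subunit genes, all 4 of complex II, all 8 of complex III, 10 of 18 of complex IV and 16 of 17 of complex V. All 8 complex I assembly factors (Ndufaf1 to Ndufaf8), which help build the enzyme but are not part of it, and all 4 of complex II (Sdhaf1 to Sdhaf4) had one too. So did Cox7a2l, a factor that joins complexes III and IV, and Ndufa4l2, a paralogue of the complex IV subunit gene Ndufa4. Of the 10 genes with no gene-end region in either list, 7 were of complex IV, and the others were Ndufb4b, Ndufb4c and Atp5d. For Cox5a, Cox7a2 and Atp5d the absence came from the annotation: their promoters lay inside the outer ends of the annotated gene and were open in both lists. These promoter regions had 105 knockout and 168 control reads at Cox5a, 64 and 112 at Cox7a2, and 237 and 347 at Atp5d, with scaled ratios of 0.976 (0.758 to 1.25), 0.892 (0.646 to 1.22) and 1.07 (0.900 to 1.26).

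The remaining complex IV genes without a region were isoforms. Cytochrome c oxidase has pairs of subunits, one widely expressed and the other limited in mammals to tissues such as muscle, heart, lung or testis. Of the 8 tissue-limited genes, Cox4i2, Cox6a2, Cox7b2, Cox8b and Cox8c had no gene-end region in either list, and 3 had one in both. Those 3 were Cox6b2, a testis isoform, with 250 reads in the knockout and 404 in the control, Cox7a1, a heart and muscle isoform, with 30 and 52, and Ndufa4l2 with 23 and 43. The Ndufa4l2 region also lies at an end of Stac3, and a stronger region inside Ndufa4l2 had 68 knockout and 118 control reads (0.900, 0.658 to 1.22). The Cox6b2 region (chr7:4751947-4753419) was the highest of complex IV in both libraries and also lay at an end of Fam71e2. Of the 7 widely expressed partners, Cox4i1 had 102 knockout and 142 control reads, Cox6a1 56 and 98, Cox6b1 21 and 43, Cox8a 132 and 207, and Ndufa4 219 and 251. The testis isoform gene Cox6b2 thus had more reads than its widely expressed partner Cox6b1 in each library.

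**Figure D1:**
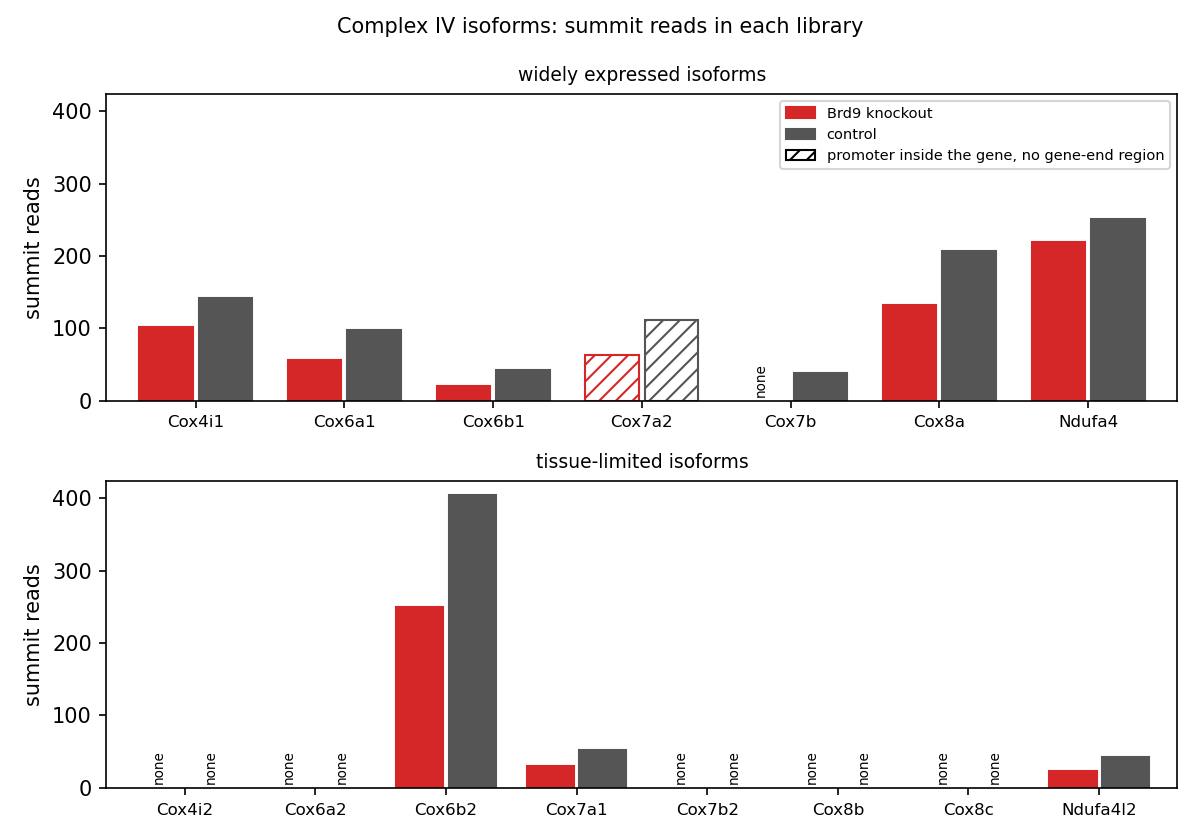
Summit reads (vertical axis) of complex IV isoform genes in the Brd9 knockout library (red) and the control library (grey), widely expressed isoforms above and tissue-limited ones below; hatched bars are a promoter inside the annotated gene, and "none" marks no region in that list. Cox6b2, with 250 knockout and 404 control reads, is the tallest pair, 5 tissue-limited genes have no region in either library, and Cox7b has one in the control alone.

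Cox7b, a small cytochrome c oxidase subunit on the X chromosome, was the only gene of the 100 with a region in one list alone. It had 38 reads in the control (26.9 to 52.2) in a peak of 380 bp (chrX:106015627-106016006), while the shortest peak of either list had 376 bp. The region overlaps the annotated start. What part the width had in its absence from the knockout list was not tested. Genotype and the difference at sex-linked genes cannot be told apart in these libraries. The other X-linked genes had regions in both lists, with 17 knockout and 31 control reads at Ndufa1 and 127 and 177 at Ndufb11.

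The regions were of the size found at other genes. Over the 89 genes, summit reads had a median of 78 in the knockout, from 12 to 322, and of 123 in the control, from 21 to 434. All protein-coding genes with a region in both lists had medians of 74 and 120. The merged regions were 1093 bp wide at the median, and those of all such genes 1038 bp. Peak widths had medians of 926 bp in the knockout and 1044 bp in the control for the set, and 894 and 988 bp for all genes. The strongest region of each complex was that of Ndufb5 for complex I (257 knockout and 419 control reads), Uqcrq for complex III (322 and 434), Cox6b2 for complex IV and Atp5g1 for complex V (264 and 354). In complex II, Sdhb had the most knockout reads and Sdhc the most control reads.

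At most of these genes the knockout and the control library could not be told apart beyond counting error once depth was scaled: the interval of the scaled ratio left out 1 at 14.6% of the 89 genes, against 16.9% of all genes with a shared region. The median log2 scaled ratio over the 89 genes was −0.04, with 38 genes above 0 and 51 below, against a median of 0.01 over all 10373 genes with a shared region, with 5344 above and 5029 below. The SD between genes was 0.28 on the log2 scale, where counting error alone would give 0.24, and over all genes these were 0.36 and 0.28. A scaled ratio of 1.5 or more was found at 0 of the 89 genes, a count that allows a share of up to 4.06% (exact Clopper-Pearson), against a background of 4.95%. A ratio of at most 1/1.5 was found at 5 genes, or 5.62% (1.85 to 12.6), against 4.59%. The interval of the ratio lay above 1 at 6 genes, or 6.74% (2.51 to 14.1), where the background was 9.33%, and below 1 at 7 genes, or 7.87% (3.22 to 15.5), where it was 7.6%. The intervals of these last 3 shares include the background, so the counts of lower genes and of intervals that left out 1 are not a result about the set. A ratio of 1.5 or more was also found at 0 of 74 mitochondrial ribosomal protein genes and 1 of 46 proteasome genes. Its absence is therefore not particular to the set. Over all genes, reads ran down to 6 in the knockout and 7 in the control, against 12 and 21 in the set. What part counting error had in the background of 4.95% was not tested. The median log2 scaled ratio was 0.05 for mitochondrial ribosomal protein genes and −0.15 for proteasome genes.

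**Figure D2:**
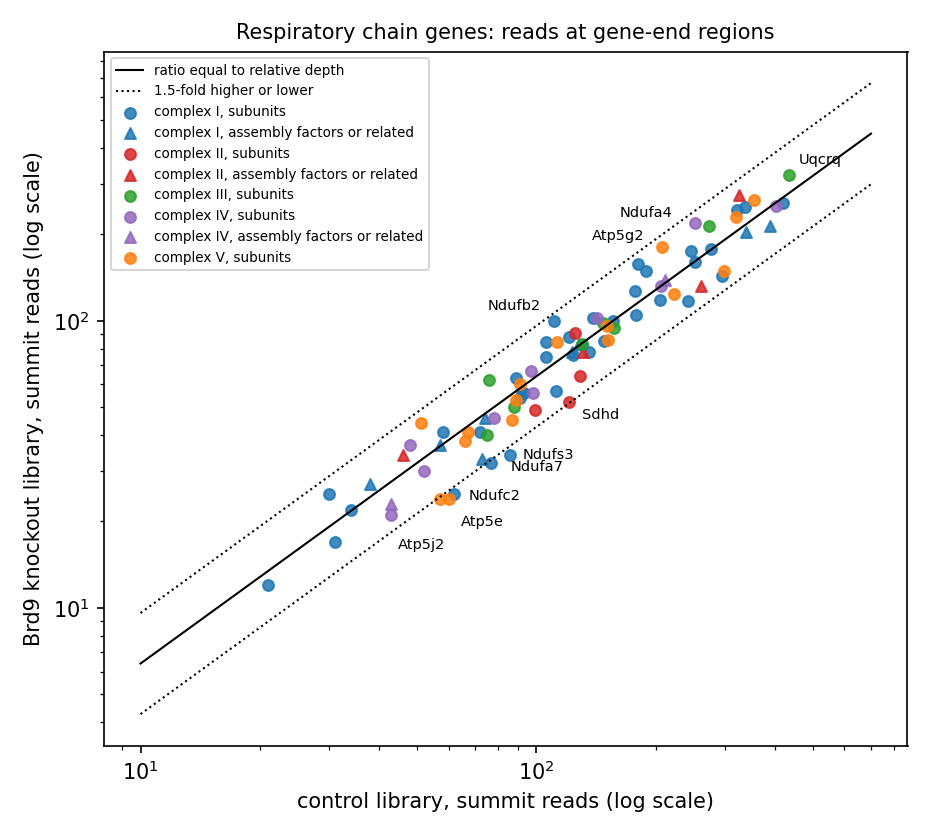
Summit reads at the gene-end region of each of the 89 genes, Brd9 knockout on the vertical axis and control on the horizontal axis, both on log scales, coloured by complex with subunits as circles and assembly factors or related proteins as triangles. The solid line is the relative depth of 0.640 and the dotted lines are 1.5-fold from it; 5 genes lie below the lower dotted line and none lies above the upper one.

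By complex, the median log2 scaled ratio was −0.02 for the subunits of complex I, −0.37 for complex II, 0.03 for complex III, −0.03 for complex IV and −0.09 for complex V. The complex II value rests on 4 genes, and at 3 of them the region is shared with another gene. Sdha, the flavoprotein that oxidises succinate, had 49 knockout and 99 control reads, a scaled ratio of 0.773 (0.537 to 1.10). Sdhb, the iron-sulphur subunit, had 91 and 125, a ratio of 1.14 (0.858 to 1.5). Sdhc and Sdhd, which anchor the enzyme in the membrane, had 64 and 129 (0.775, 0.565 to 1.05) and 52 and 121 (0.671, 0.475 to 0.936). In 3 of the 4 genes the knockout had fewer reads than its depth would give, and the interval lay below 1 only at Sdhd, whose ratio lies just outside the threshold of 0.667 for 1.5-fold lower, as Atp5j2 with 0.658 lies just inside it. With the ratio of the deposited folds the complex II median was −0.15. Sdhb alone, the only one of the 4 whose region lies at no other gene, had a log2 ratio of 0.19. The assembly factors of complex II went to both sides: Sdhaf2, which inserts the flavin into Sdha, had 274 knockout and 324 control reads (ratio 1.32, 1.12 to 1.56), and Sdhaf1, which serves the iron-sulphur subunit, had 132 and 260 (0.793, 0.638 to 0.981).

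Complex I was divided around 0, with 17 subunit genes above and 20 below. Its 7 core subunits, those with counterparts in bacteria, had a median log2 ratio of 0.15, and the 30 accessory subunits with a region one of −0.04. Among the core genes, Ndufs3, a subunit of the arm that faces the matrix, had 34 knockout and 86 control reads, a ratio of 0.617 (0.402 to 0.928), the lowest of the set. Ndufs7, which carries the iron-sulphur cluster next to the quinone site, had 157 and 181 (1.36, 1.09 to 1.69). These values lie on both sides of 1 within the same arm of the enzyme. Ndufc2, an accessory subunit of the membrane arm, had 25 and 62 reads (0.630, 0.379 to 1.02), and Ndufa7, another accessory subunit, 32 and 77 (0.649, 0.416 to 0.992). Ndufb2, also accessory, had 100 and 111 (1.41, 1.06 to 1.86), the highest ratio of the set. Ndufa13 (117 and 242, 0.755, 0.600 to 0.945) and Ndufa6 (143 and 294, 0.760, 0.618 to 0.931) were the other complex I genes with an interval below 1. The Ndufa13 region also lies at an end of Tssk6. Its summits were at −1224 bp in the knockout and −1154 bp in the control, counted from the annotated start of Ndufa13. None of the 8 assembly factors had an interval that left out 1, and their ratios ran from 0.706 at Ndufaf5 (33 and 73) to 1.11 at Ndufaf1 (27 and 38).

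In complex III, Uqcrh, the hinge protein beside cytochrome c1, had 214 knockout and 273 control reads (1.22, 1.02 to 1.47), and no interval lay below 1. Uqcrc1, a core protein of the matrix side, had 62 and 76 (1.27, 0.896 to 1.81), and Uqcrfs1, the Rieske iron-sulphur protein, 83 and 130 (0.997, 0.748 to 1.32). In complex IV, Ndufa4 was the only gene with an interval above 1, at 1.36 (1.13 to 1.64), and none lay below. Its region also lies at Phf14.

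Complex V is a rotary enzyme with a catalytic head, a membrane rotor and a stalk. The genes of the head, Atp5a1 (alpha), Atp5b (beta) and Atp5c1 (gamma, in the shaft), had 86 knockout and 152 control reads (0.884, 0.670 to 1.16), 149 and 298 (0.781, 0.637 to 0.954) and 96 and 151 (0.993, 0.761 to 1.29). The Atp5b value belongs to a region that also lies at an end of Baz2a; the region at the Atp5b promoter itself had 149 and 255 reads (0.912, 0.740 to 1.12). Atp5e, the epsilon subunit of the shaft, had 24 and 60 (0.625, 0.372 to 1.02), and Atp5j2, the f subunit of the membrane part, 24 and 57 (0.658, 0.39 to 1.08). Atp5g1, Atp5g2 and Atp5g3 encode the same mature c subunit of the rotor ring. They had 264 and 354 reads (1.17, 0.989 to 1.37), 181 and 208 (1.36, 1.11 to 1.67) and 45 and 87 (0.808, 0.551 to 1.17). The genes for this one protein thus lay on both sides of 1, and Atp5g3 had the fewest reads of the 3 in each library.

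**Figure D3:**
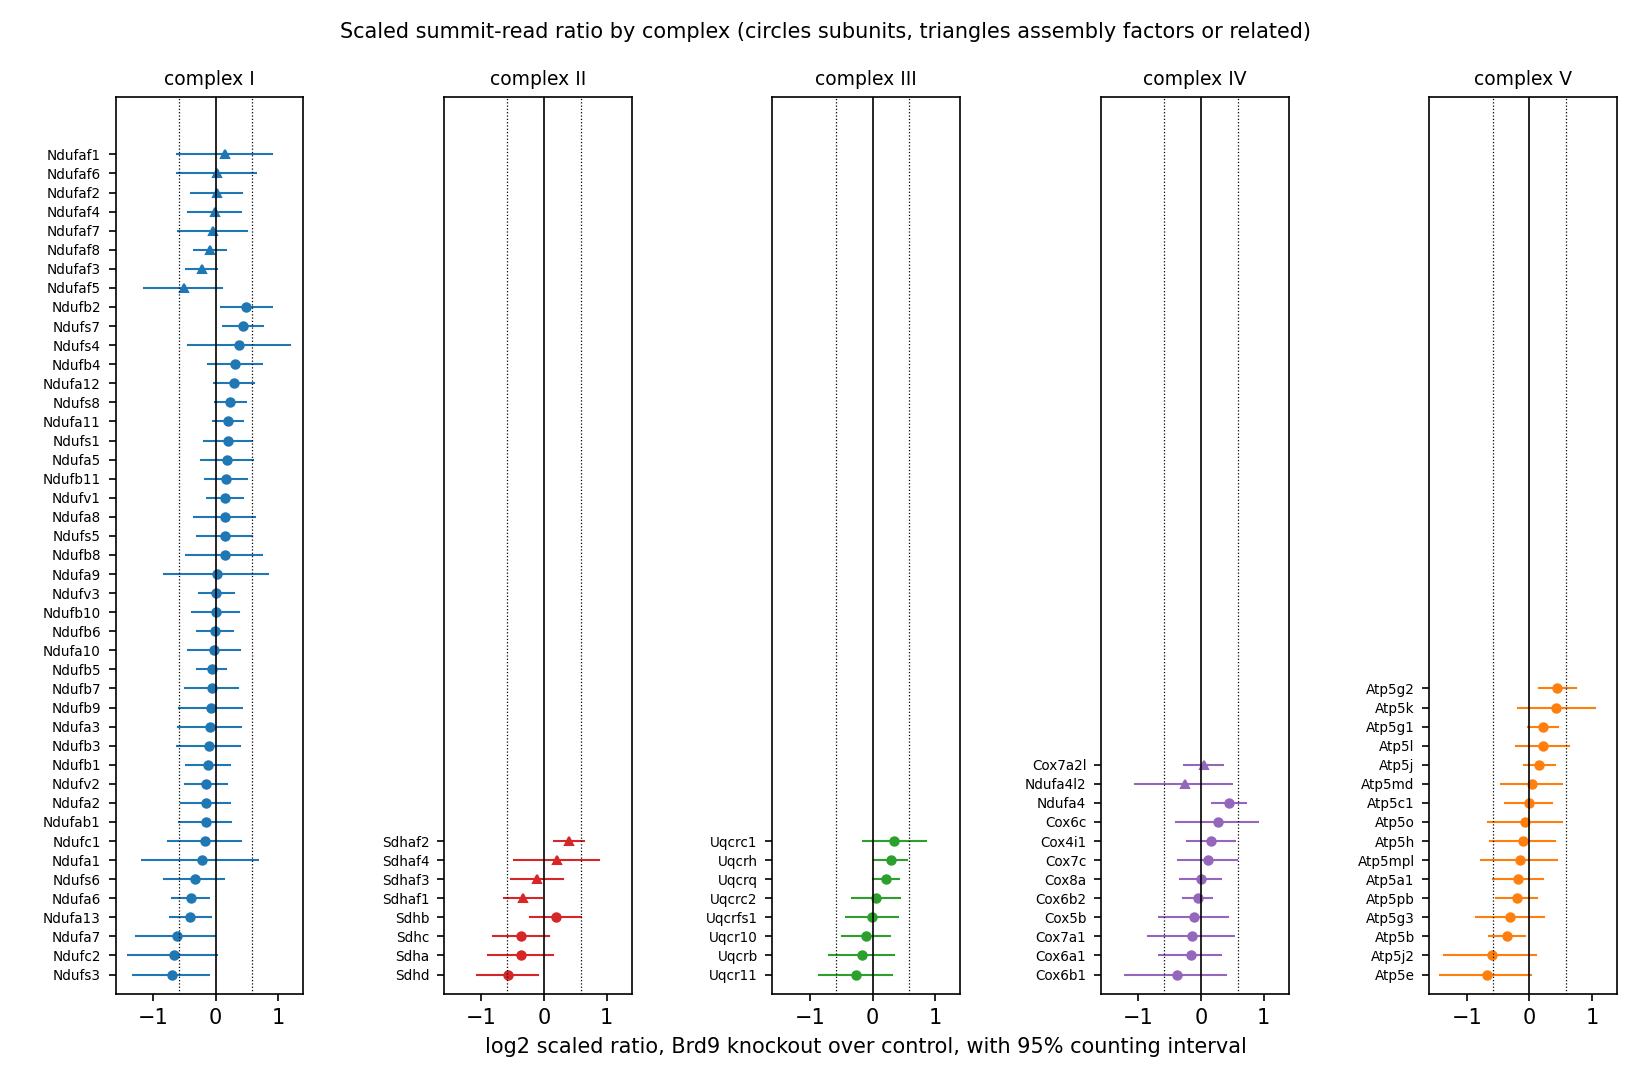
Log2 scaled ratio of Brd9 knockout over control for the genes with a region in both lists, other than 1 gene that is not drawn, in a panel per complex, with 95% counting intervals as lines, subunits as circles and assembly factors or related proteins as triangles; the solid line is 0 and the dotted lines are 1.5-fold. Most intervals cross 0 in every complex, and the points run from −0.70 at Ndufs3 to 0.49 at Ndufb2.

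The 5 genes past 1.5-fold were all at 24 to 34 reads in the knockout and 57 to 86 in the control, below the medians of the set, and 3 of their intervals included 1, those of Ndufc2, Atp5e and Atp5j2. With the ratio of the deposited folds, which sets each peak against its local background, 2 genes of the set were at least 1.5-fold lower, or 2.25% (0.273 to 7.88) against 1.95% of all genes, and Atp5e was the only one of these 5 among them. None was at least 1.5-fold higher by that measure, against 1.21%. By the deposited folds, the log2 value was −0.57 for Ndufa7, −0.40 for Ndufc2, −0.38 for Ndufs3 and −0.05 for Atp5j2.

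These genes often sit beside another gene. Of the 89 gene-end regions, 50 also lay at an end of another gene, or 56.2% (45.3 to 66.7), against 42.8% of all protein-coding genes with a shared region. Counting protein-coding neighbours only, the share was 50.6% (39.8 to 61.3) against 30.8%. It was 56.8% (44.7 to 68.2) for mitochondrial ribosomal protein genes, counting all neighbours, and 39.1% (25.1 to 54.6) for proteasome genes. Reads at such a region cannot be assigned to either gene. Where strand was known, 23 of 82 genes, or 28.0% (18.7 to 39.1), had a coding start on the opposite strand within 1 kb, facing away. The share was 8.48% of all genes in the table. It was 16.5% of genes with a promoter in a shared region, a filter that was not applied to the 82. Neighbours included other mitochondrial genes, such as Mrpl47 at Ndufb5, a mitochondrial ribosomal protein gene, and Timm8b at Sdhd, which encodes a chaperone of protein import. Atp5j stands back to back with Gabpa, which encodes the DNA-binding subunit of GABP. Of the 5 genes past 1.5-fold, Ndufs3 shared its region with Kbtbd4, Ndufa7 with the ribosomal protein gene Rps28 and Atp5e with Prelid3b.

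Most regions covered the annotated start. The promoter table had 82 of the 100 genes, and 78 of them had a promoter in a region of both lists, against 47.6% of all genes in the table; 1 was in the control list alone (Cox7b) and Cox7b2, Cox8b and Ndufb4b were in neither. The leading gene-end region covered the promoter in 74 of the 76 genes that had both. Over the 78 genes, the summit lay at a median of −1 bp from the start in the knockout and −7.5 bp in the control, and within 100 bp of it in 51 and 54 genes. Summits at both sides of the start were about equally common, with 38 knockout and 36 control summits downstream. For genes with more than 1 start, summit positions are counted from the first start in the table. For Atp5j and Ndufa7 that is not the start of the sequence shown above.

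**Figure D4:**
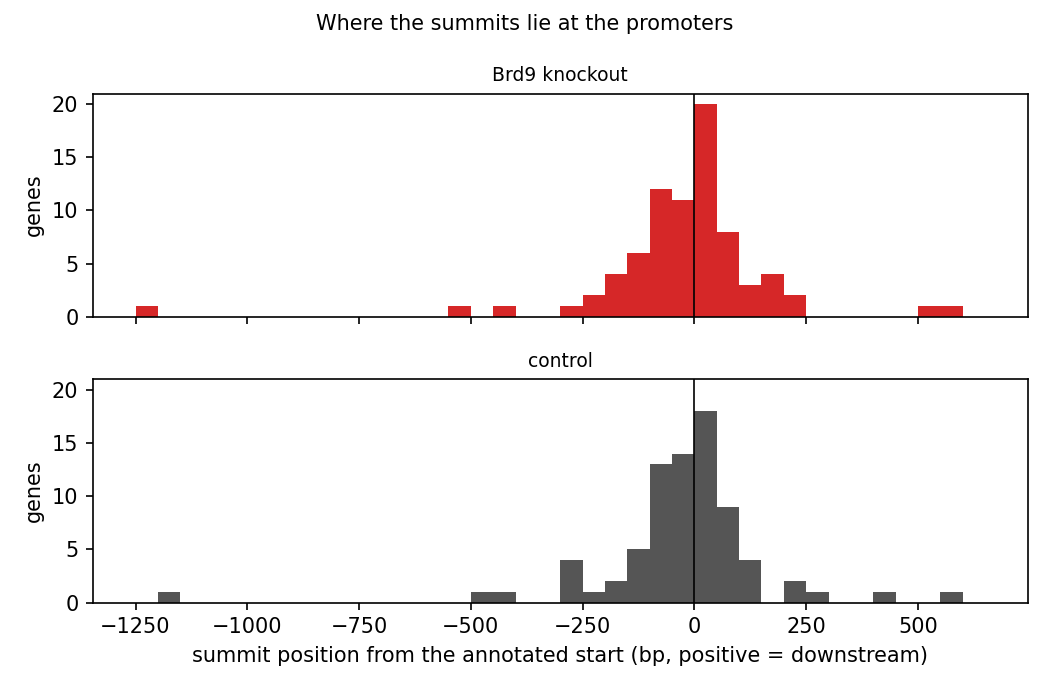
Distance of the peak summit from the annotated start (horizontal axis, bp, positive downstream) for 78 genes with a promoter in regions of both lists, Brd9 knockout above and control below; bars count genes in bins of 50 bp. Both distributions centre on the start, with medians of −1 and −7.5 bp.

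Motif letters were counted in the 83 promoters of the set that lay in shared regions and, as background, in all 11043 promoters in shared regions, each over the same 300 bp and on both strands. The search also took in the Sp and KLF letters, GGGCGG. It took in the letters that NF-Y binds, CCAAT, as well. The letters of the GATA factors of blood cells were AGATAA. No motif is contained in another. The NRF1 letters were in 12 of the 83 (interval of the share 7.70% to 23.9%) against 6.22% of the background, and the YY1 letters in 13.3% (6.81 to 22.5) against 4.96%. The ETS letters were in 26.5% (17.4 to 37.3) against 20.3%, an interval that includes the background. At least 1 of these 3 motifs was in 45.8% (34.8 to 57.1) against 28.7%. The Sp and KLF letters were less common, at 47.0% (35.9 to 58.3) against 68.8%, where the median GC content was 59.0% in the set and 62.0% in the background. They were in 52.0% (40.2 to 63.7) of mitochondrial ribosomal protein promoters in shared regions and 58.1% (42.1 to 73.0) of proteasome ones. A share below the background is therefore not particular to the set. NF-Y letters (41.0% and 39.2%) and GATA letters (7.23% and 5.95%) were close to the background. The ERR letters were in 2 promoters of the set, those of Sdhd and Atp5g3, or 2.41% against 0.199%. Over all 32851 promoters of the table, open or not, the shares were 8.86% for ETS, 2.71% for NRF1, 2.75% for YY1, 35.7% for Sp and KLF, 37.4% for NF-Y, 0.423% for ERR and 11.2% for GATA.

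**Figure D5:**
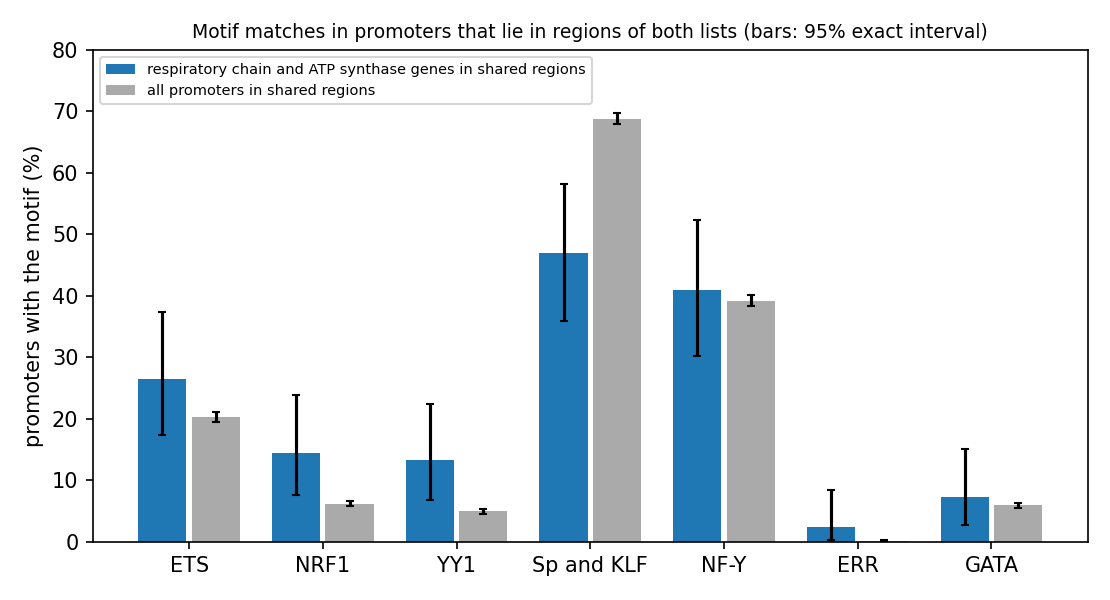
Share of promoters (vertical axis, %) that hold each motif, for the 83 promoters of the respiratory chain and ATP synthase genes in shared regions (blue) and all 11043 promoters in shared regions (grey), with exact 95% intervals. The blue bars are below the grey ones for Sp and KLF and above them for every other motif. The blue interval leaves out the grey share for NRF1, YY1, Sp and KLF, and ERR, the last on 2 promoters.

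The motifs were spread unevenly over the complexes, on small numbers. YY1 letters were in 8 of 42 complex I promoters, assembly factors included, and 3 of 18 of complex V, and in none of the 7, 5 and 11 of complexes II, III and IV. ETS letters were in 5 of 7 complex II promoters, those of Sdhb, Sdhd, Sdhaf1, Sdhaf2 and Sdhaf3, and in 6 of 42 of complex I. In mitochondrial ribosomal protein promoters in shared regions, ETS letters were in 34.7%, NRF1 letters in 10.7% and YY1 letters in 16.0%. In proteasome promoters these were 39.5%, 6.98% and 6.98%. The median log2 scaled ratio of genes with and without the letters was −0.03 and −0.03 for ETS, 0.16 and −0.05 for NRF1, and −0.09 and −0.02 for YY1.

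Away from the gene ends, a region inside the gene was found in 12 of the 100 genes, or 12.0%, against 26.8% of all protein-coding nuclear genes. The genes of the set were shorter, with a median length of 7.34 kb against 17.2 kb. These 12 regions comprised 8 in both lists, 2 in the knockout alone and 2 in the control alone. Of the 8, those of Atp5d, Cox5a and Cox7a2 are the promoters described above, which leaves 5. The interval lay below 1 at 3 of these 5, against 10.4% of such regions in all genes. The interval of the share, 14.7% to 94.7%, leaves out this background, but it rests on 5 regions, and the 3 had only 10 to 19 knockout reads. The 3 were Ndufs4 (10 knockout and 34 control reads, 0.459, 0.202 to 0.951), Ndufa10 (10 and 33, 0.473, 0.208 to 0.983) and Sdhd (19 and 60, 0.495, 0.279 to 0.840). The gene-end regions of these genes had ratios of 1.30, 0.985 and 0.671. The regions in the knockout alone, in Atp5c1 and Sdha, had 11 and 10 reads, and those in the control alone, in Sdhaf4 and Uqcrc1, had 14 each.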

How the data were processed

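ATAC-seq peaks of 2 libraries, 1 per genotype, were analysed. Per the submitters' processing notes, which give no roles or settings, the tools were MACS2 2.2.7.1 and deepTools 3.5.1, with Picard 2.26.2 and Bowtie2 2.4.4 and also Trimmomatic 0.39, on the build mm10. Read shifting and duplicate handling are not given in the sources used here. Each list belongs to 1 sample. The deposited score was not used. The deposited fold is the ratio of summit pileup to local background, with 1 added to each. The significance values that the authors deposited, a −log10 p-value and the −log10 q-value after adjustment, rest on that pileup and background.

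Summit reads were recovered from the deposited fold and −log10 p, with a largest relative misfit of 7.3e-06 over 100.0% of peaks; on simulated peaks, 100.0% of 1654 knockout and 1625 control values came back. The lowest backgrounds were 0.971 reads in the knockout and 1.52 in the control. Regions above 3000 reads were given no ratio in the gene comparisons. SciPy 1.17.1 gave the intervals; Python 3.11.15 with pandas 2.3.3 and NumPy 2.4.6 did the rest, and matplotlib 3.10.9 drew the figures. Intervals are exact Poisson for reads, conditional binomial for ratios and Clopper-Pearson for shares. PCR reads carry no molecular identifiers and are not independent, so intervals cover counting error only.

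The gene table gives gene ends without strand or exons, so a gene-end region can lie at a 3′ end, and overlapping genes share reads. Promoters with strand were matched by gene identifier for 82 of 100 genes. All genes past 1.5-fold, all in 1 list alone, the highest per complex, complex II whole, the alpha, beta and gamma subunits and the complex IV isoform pairs were named by rule, and others to show a range. Members and lists were chosen with earlier results of these data known. The values of 1 gene are not reported here singly.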

Additional observations from a re-analysis of the deposited data

Results flagged for a closer look

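The mitochondrial genome, which encodes the other subunits of complexes I, III, IV and V, was outside the comparison and had 3 regions in both lists. Their scaled ratios of knockout over control were 1.37 (1.35 to 1.39; 35708 knockout and 40836 control summit reads), 1.36 (1.33 to 1.38; 21467 and 24733) and 1.37 (1.35 to 1.39; 34788 and 39551). They drew attention as signal outside the nuclear genes, at the same ratio in every region. The deposited folds were 2.22, 1.495 and 2.85 in the knockout and 2.31, 1.55 and 2.94 in the control. The cause of the ratio was not tested.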

How the results depend on the processing

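The number of genes with a region in both lists, 89, was 87 with a 500 bp window and 90 with 2.5 kb. It was 87 with a deposited −log10 q of at least 5, and 89 where the overlap had to cover most of the shorter peak (a share of 0.5 or more). With equal numbers of peaks it was 80. That setting kept 11174 peaks per list, of 22348 in the knockout and 25330 in the control, so it also shortened both lists. For settings chosen after seeing the data, the count was 78 of the 82 genes with a RefSeq promoter and 87 of the 97 genes not on the X chromosome. Genes at least 1.5-fold lower numbered 5 or 6 throughout, except 2 with the ratio of the deposited folds, a measure by which 1.95% of all genes were as low, and 0 were at least 1.5-fold higher under each setting. The complex II median of −0.37 was −0.15 with the deposited folds and 0.19 where the region lay at no other gene, which left Sdhb alone. Relative depths of 0.638 and 0.652, from all shared regions or the fifth with the most reads, moved every log2 ratio by 0.00 and −0.03. Of 112 values under alternatives, for the 16 genes named for their ratio, 107 stayed within their counting interval. Most of them could hardly leave it. Both windows and leaving out the X chromosome did not change these values, and the RefSeq promoter changed only that of Atp5b (to −0.13). The other relative depths moved them by the small amounts given above. Of the 16 values with the deposited folds, 5 were outside: Ndufa13 (−0.05), Sdhaf1 (0.14, a change of sign), Sdhd (−0.09), Atp5b (−0.00) and Atp5g2 (0.13). The cause was not tested. No paired analysis was possible because the 2 libraries share no replicate number and no test was made. At Atp5e, with 24 knockout and 60 control reads, the interval of the ratio ran from 0.372 to 1.02.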

Other observations

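Of 19 pseudogenes whose symbols match these families, 17 had no gene-end region in either list. Atp5l2-ps had 41 knockout and 98 control summit reads in a region that also lies at an end of Cwc25, and Ndufs6b had 9 and 15.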
